A study of Mus musculus with 40 samples.

Results

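HDAC3 is a histone deacetylase that works in a corepressor complex built around NCoR proteins. The complex is recruited by nuclear receptors and other transcription factors, where it removes acetyl groups from histones and lowers transcription. In the hippocampus, deletion or inhibition of HDAC3 is known to strengthen long-term memory for object location in rodents.

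The comparison described here was between dorsal hippocampus of old mice that had been trained in object location memory (OLM), with HDAC3 deleted or present. It used 14 of the 40 RNA-seq libraries of the series, 1 per mouse, and the 14068 genes with a mean of at least 0.5 RPKM (read density of a gene, scaled to its length and to the mapped reads of the library) over those 14 libraries. The old HDAC3flox/flox OLM group held 8 mice, whose Hdac3 gene carries recombination sites on both alleles, and the old wildtype OLM group held 6 wildtype littermates. Mice of both groups were 18 to 20 months old, of strain C57BL/6J in the labels and on a C57BL/6 background in the methods, and both had received AAV2.1-CaMKII-Cre in the dorsal hippocampus, so that Cre alone did not separate the groups. The CaMKII promoter directs Cre to excitatory neurons, and which cells of each punch lost Hdac3 was not measured. Tissue was taken 60 min after training. As a side comparison, 14 other old mice that had received the same virus and stayed in the homecage, 8 HDAC3flox/flox and 6 wildtype, gave the genotype difference without training. The labels gave no sex, litter or sequencing batch.

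A gene was called when the p-value of limma was under 0.05 and its Benjamini-Hochberg adjusted p was under 0.15, on log2(RPKM + 0.5). Fold changes below are log2 values on that scale, old HDAC3flox/flox over old wildtype, with standard errors (SE), and understate the change of genes near 0.5 RPKM. The RPKM sums to be compared came from libraries whose depth was estimated, from the step between the smallest values of short RNA genes, at 20.6 to 29.2 M reads in the old HDAC3flox/flox OLM group and 14.3 to 37.1 M reads in the old wildtype OLM group. Transcripts of hippocampal cells were present in all 14 libraries. The mean level of CA1 pyramidal cell markers, in log2(RPKM + 0.5), was 2.81 to 4.49 in the old HDAC3flox/flox OLM mice and 2.66 to 4.05 in the old wildtype OLM mice, and that of dentate granule cell markers was 2.73 to 4.72 in the old HDAC3flox/flox OLM mice and 3.77 to 4.39 in the old wildtype OLM mice.

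Old HDAC3flox/flox OLM mice H3F-BV-108D and H3F-BV-113D stood apart. In mouse H3F-BV-113D, 1207 genes lay more than 1 log2 unit from the median of the 14 libraries, led by the antibody chain gene Jchain and by Mzb1, both of plasma cells. In mouse H3F-BV-108D, 1160 genes did so, and genes in the lowest quartile of transcript length lay 0.47 above the median of the libraries while genes in the highest quartile lay 0.30 below it (medians over genes, log2). In the other 12 libraries this count was between 43 and 446. The median SD over genes was 0.24 in the old HDAC3flox/flox OLM group and 0.15 in the old wildtype OLM group (log2 scale), and it was 0.15 in the old HDAC3flox/flox OLM group without those mice. The count of called genes and the medians of lists that turn in sign are therefore also given without them. Of 41 gene lists described here, 17 had a median of the other sign without both mice. Reads of Xist exceeded those of the Y-linked Ddx3y in 5 of 8 old HDAC3flox/flox OLM libraries and in 2 of 6 old wildtype OLM libraries, so the sexes were not evenly spread over the groups.

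Hdac3 mRNA was lower in every old HDAC3flox/flox OLM mouse than in any old wildtype OLM mouse. The 8 old HDAC3flox/flox OLM mice held 11.5, 13.1, 16.9, 18.5, 19.7, 20.9, 22.2 and 24.2 RPKM, and the 6 old wildtype OLM mice held 28.1, 28.4, 29.8, 30.9, 31.3 and 33.1 RPKM. The groups did not overlap, and the spread was wider in the deleted mice, with 18.4 ± 4.35 RPKM (SD, n = 8) against 30.3 ± 1.89 RPKM (SD, n = 6). Hdac3 fell by 0.74 on the log2 scale (SE 0.14, limma adjusted p = 0.107), and the exact permutation test over the 14 mice gave p = 0.000666, two-sided, the smallest that 3003 arrangements allow (adjusted p = 0.00466 over 7 genes). The limma call held in 6 of 14 leave-one-out fits and was lost with the Xist status as a term (adjusted p = 0.193), while without mice H3F-BV-108D and H3F-BV-113D the log2 difference was -0.72 (adjusted p = 0.0854). Homecage mice showed the same order, with 16.2 ± 1.62 RPKM in old HDAC3flox/flox mice (SD, n = 8) and 30.0 ± 1.63 RPKM in old wildtype mice (SD, n = 6), a log2 difference of -0.87 (adjusted p = 7.8e-05). The values cover the whole gene and all cell types of the punch, so the fraction of excitatory neurons that lost Hdac3 was not measured.

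Across all genes the differences ran mostly one way. In old HDAC3flox/flox OLM mice 36 genes were called lower (0.256% of the 14068 tested) and 2 were called higher (0.0142%), in total 38 genes (0.27%). At an unadjusted p under 0.05, 587 genes were lower (4.17%) and 78 were higher (0.554%), so that 88.3% of them were lower. That imbalance depended on the scaling: 331 lower and 203 higher genes (62.0% lower) passed with median-ratio scaling, and 302 lower and 161 higher (65.2% lower) with quantile normalization. The median fold change of all genes was -0.03 as deposited and 0.01 with median-ratio scaling. Of the 36 genes called lower, 24 (66.7%) did not overlap between the groups, as against 48 of all genes (0.341%), which is part of how they came to be called.

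**Figure D1:**
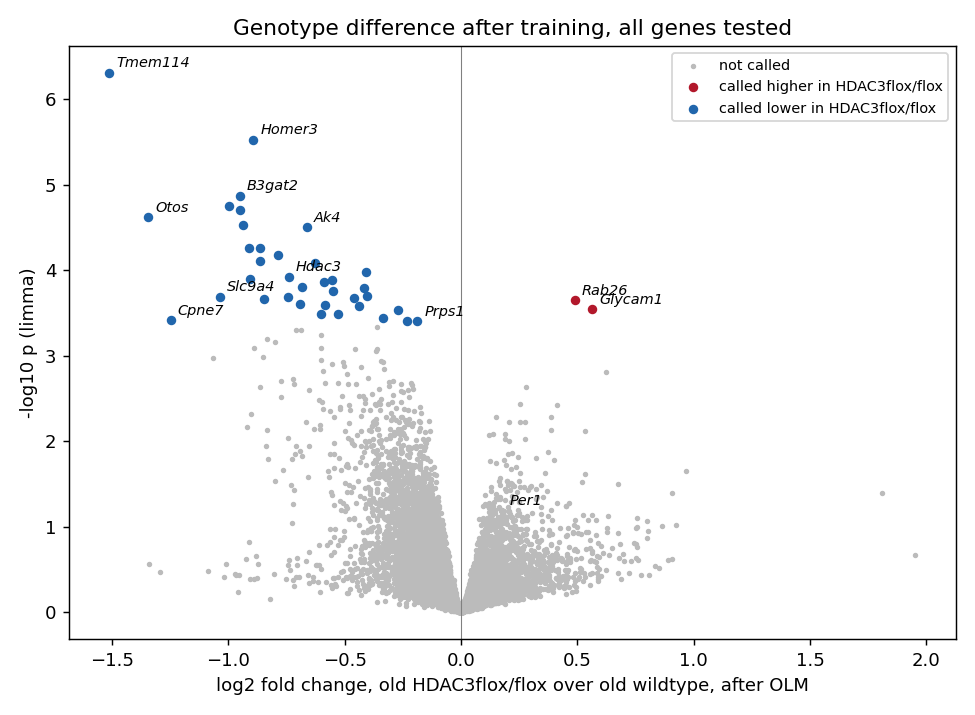
Log2 fold change of each tested gene, old HDAC3flox/flox OLM over old wildtype OLM (horizontal axis), against -log10 of the limma p-value (vertical axis), with called genes in colour. Blue points to the left are the 36 genes called lower and the 2 red points to the right are Rab26 and Glycam1.

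The number of called genes rested on single mice. Without both mice that stand apart, 70 genes were called lower and 17 higher, and 31 of the 36 genes and both higher genes were among them. The 5 no longer called were Cpne7, Nnat, Sstr3, Twist2 and Adgrf4, and all 36 stayed negative, between -1.45 and -0.19. Leaving out 1 mouse at a time gave 2 genes called lower without old wildtype OLM mouse OWT-BV-106C and 2 without OWT-BV-116C, 7 without OWT-BV-104C, 8 without OWT-BV-109C, 8 without old HDAC3flox/flox OLM mouse H3F-BV-102D, 13 each without OWT-BV-103C, H3F-BV-118D and H3F-BV-128D, 16 without OWT-BV-127C, and 18 without H3F-BV-125D. Without H3F-BV-108D, H3F-BV-113D, H3F-BV-119D or H3F-BV-123D the count was 40, 34, 38 or 27. With the Xist status as a term in the fit, 8 genes were called lower, all of them among the 36, and none higher. Tmem114 and Homer3 were the only genes called in all 14 of these leave-one-out fits. All 36 kept a negative fold change in each of these fits. The 36 genes were chosen for low values in these same mice, so their sign could hardly turn, here or without both mice.

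Tmem114, which encodes a transmembrane protein of the claudin superfamily, had the smallest p-value and the largest fall. It was at 0.506, 0.560, 0.673, 0.694, 0.809, 1.16, 1.36 and 1.45 RPKM in old HDAC3flox/flox OLM mice, against 2.33, 2.75, 3.52, 3.84, 3.95 and 4.27 RPKM in old wildtype OLM mice. Every deleted mouse was below every wildtype mouse, and the level was low in both groups. Tmem114 fell by 1.51 (log2, SE 0.18, adjusted p = 0.00695). Without mice H3F-BV-108D and H3F-BV-113D the log2 difference was -1.44 (adjusted p = 0.037).

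Homer3, a postsynaptic scaffold protein that binds group I metabotropic glutamate receptors, was well expressed and separated the groups as cleanly. Its values were 14.1, 14.8, 16.7, 18.9, 19.7, 21.5, 23.3 and 24.6 RPKM in old HDAC3flox/flox OLM mice, against 31.2, 32.9, 34.8, 35.3, 38.8 and 40.4 RPKM in old wildtype OLM mice. The highest deleted mouse, H3F-BV-102D, stood well under the lowest wildtype mouse, OWT-BV-127C. Homer3 fell by 0.89 (log2, SE 0.12, adjusted p = 0.0211), and without mice H3F-BV-108D and H3F-BV-113D the log2 difference was -0.84 (adjusted p = 0.037).

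The promoter sequences of these 2 genes are shown, from 250 bases before to 50 bases after the annotated start, because they were the genes called in every leave-one-out fit. Those of Per1 and Hmgcs1 are shown as members of the clock and cholesterol lists described further on. Sequences are those of RefSeq on GRCm38.p6, 5′ to 3′ on the strand of the gene. Tmem114 lies at chr16:8425087-8425386 (minus strand), Homer3 at chr8:70282749-70283048 (plus strand), Per1 at chr11:69098699-69098998 (plus strand) and Hmgcs1 at chr13:119690101-119690400 (plus strand). Capitals mark matches, on either strand, to the E-box CACGTG, the sterol response element TCACNCCAC or the GC box GGGCGG, where N is any base. Per1 has another annotated start, whose window at chr11:69099902-69100201 (plus strand) held a GC box and no E-box. Neither Per1 window held the cyclic AMP response element (CRE) TGACGTCA. The study measured histone acetylation at a CRE site of the Per1 promoter, whose position was not examined here.

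Tmem114: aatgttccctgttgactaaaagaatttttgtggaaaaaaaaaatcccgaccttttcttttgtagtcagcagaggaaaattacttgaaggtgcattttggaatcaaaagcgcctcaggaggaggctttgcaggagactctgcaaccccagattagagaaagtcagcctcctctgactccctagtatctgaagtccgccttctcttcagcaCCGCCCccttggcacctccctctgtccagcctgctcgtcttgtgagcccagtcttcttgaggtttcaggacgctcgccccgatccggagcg
Homer3: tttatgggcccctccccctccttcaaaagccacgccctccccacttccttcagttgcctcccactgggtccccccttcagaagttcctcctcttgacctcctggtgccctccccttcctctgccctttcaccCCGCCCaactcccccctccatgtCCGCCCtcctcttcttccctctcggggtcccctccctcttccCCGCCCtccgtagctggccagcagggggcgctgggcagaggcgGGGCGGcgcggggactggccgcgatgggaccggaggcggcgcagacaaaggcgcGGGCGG
Per1: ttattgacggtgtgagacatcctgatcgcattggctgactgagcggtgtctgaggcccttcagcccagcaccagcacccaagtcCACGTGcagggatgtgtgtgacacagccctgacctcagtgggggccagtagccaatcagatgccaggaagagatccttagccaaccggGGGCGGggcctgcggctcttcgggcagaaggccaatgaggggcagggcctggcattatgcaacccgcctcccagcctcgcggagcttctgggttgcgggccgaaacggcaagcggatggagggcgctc
Hmgcs1: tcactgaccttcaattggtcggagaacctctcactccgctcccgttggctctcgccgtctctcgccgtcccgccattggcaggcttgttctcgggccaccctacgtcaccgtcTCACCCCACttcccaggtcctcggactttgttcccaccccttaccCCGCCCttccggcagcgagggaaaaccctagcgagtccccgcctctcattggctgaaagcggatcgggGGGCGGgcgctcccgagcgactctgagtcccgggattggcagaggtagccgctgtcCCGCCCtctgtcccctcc

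A GC box was found in the windows of Tmem114 and Homer3, a motif held by 64.5% of the 31 promoters of 27 genes called lower, by 61.1% of the promoters of all genes tested and by 35.7% of all 32851 promoters. The E-box was found in 6.45% of the promoters of genes called lower and in 9.68% of those of the genes tested. The interferon-stimulated response element GAAANNGAA was found in 6.45% and 7.18% of the same sets, and neither the cyclic AMP response element TGACGTCA nor the D-box TTATGTAA was found in a promoter of the genes called lower. E-boxes in Per1 and other clock repressors were held by 44.4% of their 9 promoters. The sterol response element was found in 1 of the 13 promoters of cholesterol genes (7.69%), that of Hmgcs1, and in 1.13% of the promoters of the genes tested. Overlapping windows of alternative starts of 1 gene share bases, so these shares count some sequence more than once. The sterol and GC motifs were added after the fold changes were known.

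Several called genes encode calcium-binding, membrane and receptor proteins. Cpne9 and Cpne7 encode copines, which bind membrane phospholipids when calcium rises. Cpne9 ranged over 4.23 to 9.63 RPKM (median 6.10) in old HDAC3flox/flox OLM mice and over 11.1 to 15.4 RPKM (median 12.9) in old wildtype OLM mice, without overlap, and fell by 0.93 (log2, SE 0.16, adjusted p = 0.055). Cpne7 ranged over 4.22 to 13.4 RPKM (median 6.99) in old HDAC3flox/flox OLM mice and over 11.7 to 28.7 RPKM (median 16.4) in old wildtype OLM mice, and fell by 1.25 (SE 0.27, adjusted p = 0.146). The Cpne7 groups overlapped at their ends and the call held in 1 of 14 leave-one-out fits. Cdh24, a cadherin listed here among neocortical layer markers, was at 1.49 to 3.71 RPKM in old HDAC3flox/flox OLM mice and 3.85 to 6.14 RPKM in old wildtype OLM mice, and fell by 0.95 (adjusted p = 0.055). Slc9a4, a sodium and proton exchanger, fell by 1.04 (adjusted p = 0.117), Sstr3, the somatostatin receptor of neuronal cilia, by 0.53 (adjusted p = 0.136) and Cd200, the surface ligand through which neurons restrain microglia, by 0.40 (adjusted p = 0.117).

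Other called genes encode enzymes. Ak4, a mitochondrial adenylate kinase, was at 4.23 to 7.14 RPKM (median 5.62) in old HDAC3flox/flox OLM mice and 7.86 to 10.8 RPKM (median 9.25) in old wildtype OLM mice. These ranges did not overlap, and Ak4 fell by 0.66 (log2, SE 0.11, adjusted p = 0.055). Lpl, the lipoprotein lipase that releases fatty acids from triglycerides, was at 6.20 to 14.3 RPKM (median 7.96) in old HDAC3flox/flox OLM mice and 13.3 to 18.1 RPKM (median 14.5) in old wildtype OLM mice. Only mouse H3F-BV-119D, at 14.3 RPKM, reached the range of the wildtype mice, and Lpl fell by 0.87 (SE 0.16, adjusted p = 0.0902). Alox8, a lipoxygenase, fell by 0.86 (adjusted p = 0.0774), Pcbd1, which helps to recycle the cofactor tetrahydrobiopterin, by 0.68 (adjusted p = 0.115), Cdo1, cysteine dioxygenase, by 0.27 (adjusted p = 0.129), and Prps1, which makes the phosphoribosyl donor for nucleotide synthesis, by 0.19 (adjusted p = 0.146). The fall of Prps1 was the smallest of the 36, yet its groups did not overlap, with 24.6 to 27.2 RPKM in old HDAC3flox/flox OLM mice and 28.5 to 31.2 RPKM in old wildtype OLM mice.

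Secreted factors and their regulators were also among the called genes. Rspo2, which strengthens Wnt signalling, fell by 0.74 (adjusted p = 0.117), and Nkd2, which restrains it, fell by 0.79 (adjusted p = 0.0859). Shisa2, whose family members hold back Wnt and FGF receptors, was at 0.451 to 1.16 RPKM in old HDAC3flox/flox OLM mice and 1.55 to 2.89 RPKM in old wildtype OLM mice and fell by 0.998 (SE 0.16, adjusted p = 0.055). Nbl1, a secreted antagonist of BMP ligands, was at 27.9 to 43.3 RPKM in old HDAC3flox/flox OLM mice and 45.1 to 54.0 RPKM in old wildtype OLM mice and fell by 0.44 (adjusted p = 0.123). The metalloproteases Adamts8 and Adamts9 fell by 0.58 and 0.46 (adjusted p = 0.123 and 0.117). B3gat2, a glucuronyltransferase that makes the HNK-1 carbohydrate, was at 0.850 to 1.90 RPKM in old HDAC3flox/flox OLM mice and 2.50 to 4.46 RPKM in old wildtype OLM mice and fell by 0.95 (SE 0.15, adjusted p = 0.055). Otos, named for its product in the inner ear, fell by 1.34 (adjusted p = 0.055) from a level of at most 3.87 RPKM.

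The other called genes fell by amounts within the same range. Prmt2, an arginine methyltransferase, held 16.5 to 22.7 RPKM in old HDAC3flox/flox OLM mice and 24.1 to 30.8 RPKM in old wildtype OLM mice, a log2 fold change of -0.41 (adjusted p = 0.106). Nnat, an imprinted gene of the endoplasmic reticulum, held 17.6 to 43.1 RPKM in old HDAC3flox/flox OLM mice and 39.7 to 71.1 RPKM in old wildtype OLM mice, a log2 fold change of -0.85 (adjusted p = 0.117). The remaining genes were Prss35, Klk10, Thsd7b, Zbtb8b, Ahsa2, Palm3, Twist2, Adgrf4, Qpct, Pcyox1 and 2310002F09Rik, with adjusted p between 0.077 and 0.146. Of the 36 genes, 19 averaged under 5 RPKM in the old wildtype OLM mice. The members of this grouping by role were not tested as sets. Besides Hdac3, 1 called gene, Cdo1, lay on the chromosome of Hdac3, with its start 8776222 bases from that of Hdac3. This position was read after its call was known. The share of all tested genes on that chromosome is not given here, so this count cannot show an excess. The flanking sequence inherited with the floxed allele was not tested.

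**Figure D2:**
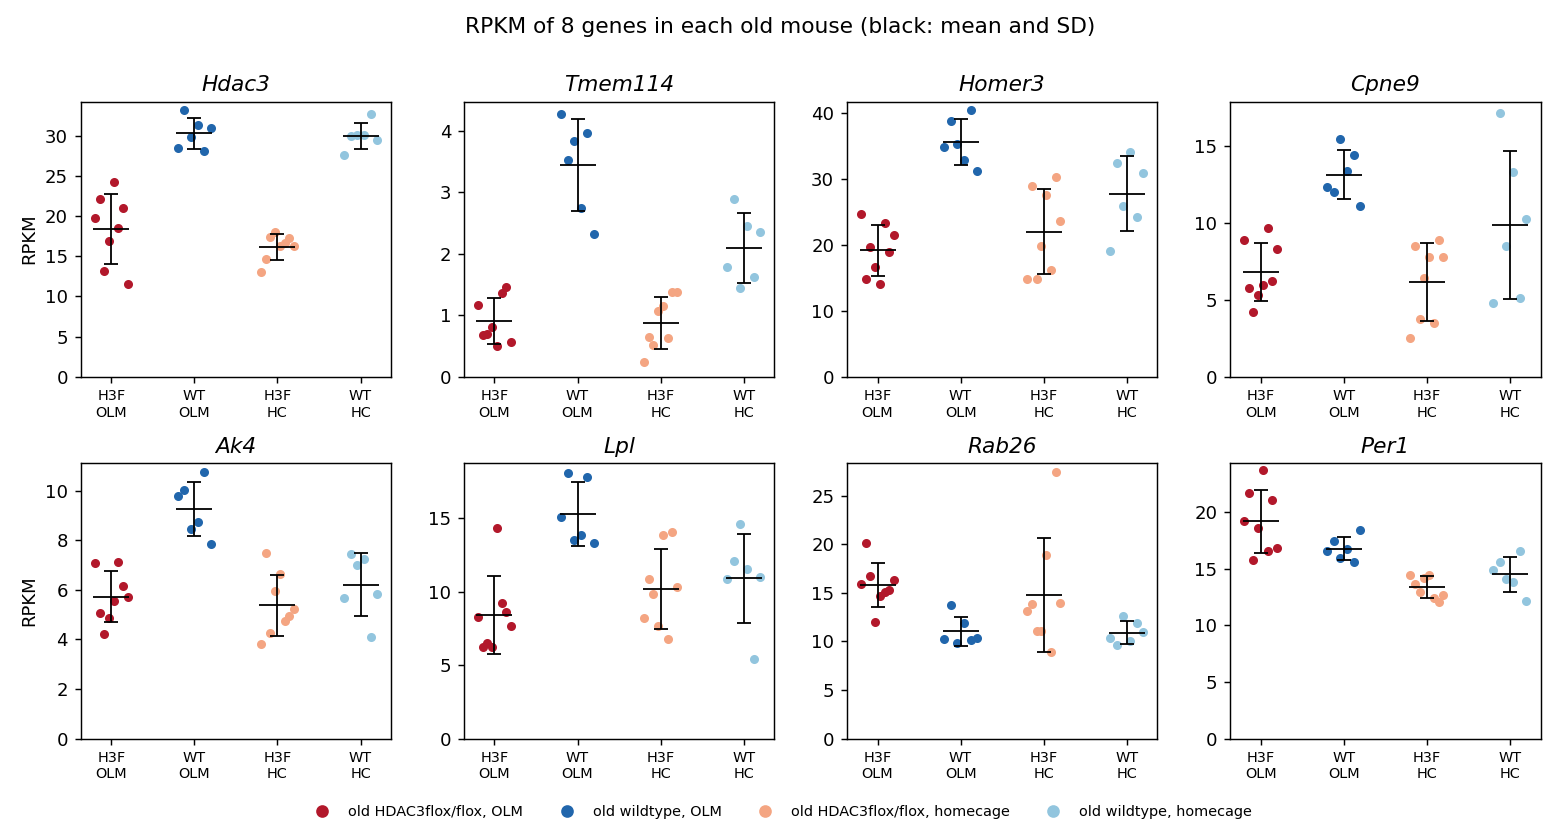
RPKM of 8 genes (vertical axes, each from 0) in each old mouse, with old HDAC3flox/flox OLM left of old wildtype OLM and then both homecage groups; points are mice and black bars are the mean and SD. Hdac3, Tmem114, Homer3, Cpne9 and Ak4 do not overlap between genotypes after OLM, while Lpl, Rab26 and Per1 overlap.

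Rab26, a small GTPase of secretory and synaptic vesicles, was the better expressed of the 2 genes called higher. It held 12.01 to 20.1 RPKM (median 15.6) in old HDAC3flox/flox OLM mice and 9.88 to 13.7 RPKM (median 10.3) in old wildtype OLM mice. The ranges overlapped, and Rab26 rose by 0.49 (log2, SE 0.10, adjusted p = 0.117). Glycam1, a mucin-like ligand of L-selectin, held 0.615 to 1.16 RPKM in old HDAC3flox/flox OLM mice and 0.290 to 0.745 RPKM in old wildtype OLM mice, a log2 fold change of 0.56 (adjusted p = 0.129). Each call held in 4 or fewer of the 14 leave-one-out fits.

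No other gene was called higher, and the genes of smallest p in that direction are given as values only. Nr1d1, which encodes the clock repressor REV-ERBα that recruits HDAC3 to DNA, held 30.9 to 40.8 RPKM in old HDAC3flox/flox OLM mice and 29.1 to 34.0 RPKM in old wildtype OLM mice (log2 fold change 0.21, SE 0.06, adjusted p = 0.577). Grik3, a kainate receptor subunit, had a log2 fold change of 0.41 (adjusted p = 0.503), Gda, guanine deaminase, of 0.28 (adjusted p = 0.421), Tspan5, a tetraspanin, of 0.25 (adjusted p = 0.503), and Hipk4, a protein kinase, of 0.39 (adjusted p = 0.569). Atg13, an autophagy initiation factor, held 24.5 to 28.6 RPKM in old HDAC3flox/flox OLM mice and 23.1 to 24.1 RPKM in old wildtype OLM mice, without overlap but with a log2 fold change of only 0.15 (adjusted p = 0.569). The others of smallest p were Phactr1, Lurap1, Ipcef1, Tnnc1, Ergic1, Agap1, Sdf4 and Mir7666, with log2 fold changes between 0.12 and 0.62. Reads over Mir7666 could come from a longer overlapping transcript.

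The clock and activity genes singled out by the study gave no genotype difference after OLM that passed the test. The study picked Per1, Nr4a1, Egr1 and Tsc22d3 from trained against homecage mice within each group, which is another contrast. It reported that training raised Per1 mRNA (RT-qPCR) and histone acetylation at its promoter (ChIP-qPCR) in old HDAC3flox/flox but not in old wildtype mice. By RT-qPCR, the deletion left the induction of Arc unaffected and did not restore that of Fos. Per1, a clock gene that is also induced by activity, was at 15.8 to 23.8 RPKM (median 18.9) in old HDAC3flox/flox OLM mice and 15.6 to 18.4 RPKM (median 16.7) in old wildtype OLM mice. The deleted mice reached higher, but the ranges overlapped, and the log2 difference of 0.18 had an exact permutation p of 0.0646 (two-sided, adjusted p = 0.226 over 7 genes). In the homecage the log2 fold change of Per1 was -0.11, and the difference between both fold changes had an unadjusted limma p of 0.0164 with an adjusted p of 0.995. The glucocorticoid-induced Tsc22d3 and the immediate-early genes Egr1, Nr4a1, Fos and Arc had log2 differences of 0.13, 0.14, 0.02, 0.02 and -0.03, each with an exact permutation p of at least 0.390.

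The 10 clock repressors had a median log2 fold change of 0.12 after OLM, with 8 positive and 2 negative values and none called. The 10 clock activators and output regulators had a median of 0.13, with 6 positive values and none called. In the homecage the median was -0.18 for the clock repressors, with 8 negative and 2 positive values, and -0.02 for the clock activators and output regulators. Among 38 immediate-early genes the median was 0.02 (-0.04 without mice H3F-BV-108D and H3F-BV-113D) and none was called. The lowest p there was that of Nr4a3, a nuclear receptor of the same family as Nr4a1, at 12.1 to 19.8 RPKM in old HDAC3flox/flox OLM mice and 17.7 to 24.1 RPKM in old wildtype OLM mice (log2 fold change -0.44, SE 0.12, adjusted p = 0.473). Ptgs2, cyclooxygenase-2, had a log2 fold change of -0.47 and Ier5 one of 0.37, and neither was called.

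Partners of HDAC3 were not called. Of the 6 genes of the HDAC3 and NCoR complex, Hdac3 alone was called, and the median was 0.09. Tbl1xr1, which exchanges corepressors for coactivators, had a log2 fold change of 0.17 (adjusted p = 0.922). None of the 10 other histone deacetylases was called (median 0.01, and -0.01 without mice H3F-BV-108D and H3F-BV-113D); the smallest p was that of Hdac6, a cytoplasmic tubulin deacetylase, with -0.18 (adjusted p = 0.919), which in the homecage had -0.35 (adjusted p = 0.124) and was called. None of 22 genes under LXR, PPAR and thyroid hormone receptors, which use the same corepressors, was called (median -0.0023). The cholesterol exporter Abcg1 had 0.22 and Hr, a thyroid hormone target, 0.32 (adjusted p = 0.875 and 0.988).

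Markers of CA3 pyramidal cells were lower as a list. All 10 CA3 markers had a negative log2 fold change, with a median of -0.49 beside -0.03 over all genes, 4 had an unadjusted p under 0.05 (4.17% of all genes did in that direction), and Homer3 alone was called. Per mouse, the mean level of the list was 2.60 to 3.49 in old HDAC3flox/flox OLM mice and 3.44 to 3.91 in old wildtype OLM mice, in log2(RPKM + 0.5), and overlapped narrowly. Iyd, iodotyrosine deiodinase, was at 1.39 to 5.49 RPKM (median 2.80) in old HDAC3flox/flox OLM mice and 4.10 to 7.02 RPKM (median 6.08) in old wildtype OLM mice, a log2 fold change of -0.90 (adjusted p = 0.553). Bok, a pro-apoptotic BCL-2 relative, was at 38.3 to 90.0 RPKM (median 49.6) in old HDAC3flox/flox OLM mice and 71.6 to 112.3 RPKM (median 85.6) in old wildtype OLM mice, a log2 fold change of -0.63 (adjusted p = 0.615). Pvrl3, a nectin, had -0.77 (adjusted p = 0.473) and Grik4, a kainate receptor subunit, -0.36. The median of the list was -0.37 without mice H3F-BV-108D and H3F-BV-113D and lay between -0.56 and -0.37 in the leave-one-out fits. In the homecage it was 0.17. In bulk tissue, fewer cells of a type and less RNA per cell cannot be told apart, and the part that the amount of CA3 in the punch had in the fall of Homer3 and the other called genes was not tested.

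Among markers of other hippocampal cell types and of neighbouring tissue, the thalamus and habenula list had a median near that of CA3. The other lists had smaller medians or, for choroid plexus, were high in few mice. CA1 pyramidal cell markers had a median of 0.12 and dentate granule cell markers one of -0.02, with none called among 10 and 14 genes; without mice H3F-BV-108D and H3F-BV-113D these medians were 0.28 and 0.12. Interneuron markers had a median of -0.10, and Gad2, a GABA-synthesizing enzyme, had -0.28 (adjusted p = 0.875). Thalamus and habenula markers had a median of -0.45, with 9 of 10 negative. Prkcd, a protein kinase C of thalamic relay neurons, was at 9.20 to 28.05 RPKM in old HDAC3flox/flox OLM mice and 19.1 to 51.7 RPKM in old wildtype OLM mice (log2 fold change -1.06, SE 0.26, adjusted p = 0.292). Per mouse, the mean level of the thalamic list was 1.41 to 1.92 in old HDAC3flox/flox OLM mice, in log2(RPKM + 0.5). In old wildtype OLM mice it was 1.40 in OWT-BV-104C and 1.98 to 3.02 in the others, highest in OWT-BV-116C. The median of the thalamic list was -0.37 without mice H3F-BV-108D and H3F-BV-113D, as was that of CA3 markers. Its leave-one-out medians ran from -0.64 to -0.07. Choroid plexus markers had a median of -0.75 with all 15 negative, but their mean level was 4.65 in old HDAC3flox/flox OLM mouse H3F-BV-118D, and 5.15 and 3.02 in old wildtype OLM mice OWT-BV-127C and OWT-BV-116C, against at most 1.19 in the others. None was called, and the leave-one-out medians ran from -1.29 without H3F-BV-118D to -0.04 without OWT-BV-127C. Neocortical layer markers had a median of -0.13 (0.0030 without mice H3F-BV-108D and H3F-BV-113D), and Cdh24 alone of the 9 was called. In the homecage the median was 1.40 for choroid plexus markers, -0.86 for dentate granule cell markers and -0.44 for thalamic markers.

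**Figure D3:**
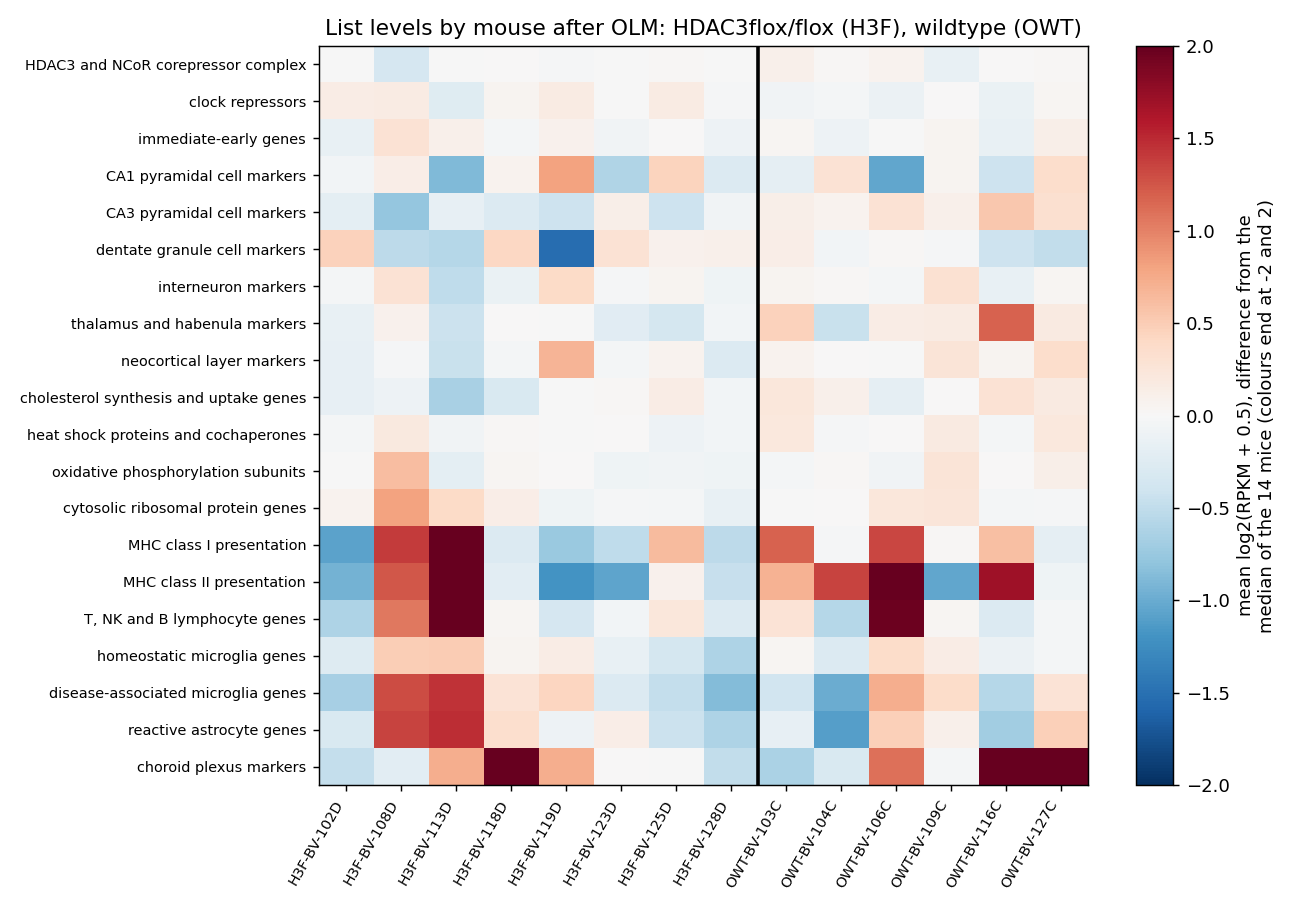
Mean log2(RPKM + 0.5) of 20 gene lists (rows) in the 14 mice after OLM (columns), as the difference from the median of the mice, with 8 old HDAC3flox/flox mice left of the black line and 6 old wildtype mice right of it. CA3 markers are mostly lower to the left of the line, and the MHC class I, lymphocyte, microglia and reactive astrocyte lists are highest in H3F-BV-113D, H3F-BV-108D and OWT-BV-106C.

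Genes of cholesterol synthesis and uptake were lower by small amounts. All 17 tested had a negative log2 fold change, with a median of -0.24, beside 60.3% negative values and a median of -0.03 over all genes. Of the 17, 7 had an unadjusted p under 0.05 (4.17% of all genes did in that direction), but none was called. Sqle, squalene epoxidase, was at 9.32 to 17.6 RPKM (median 14.4) in old HDAC3flox/flox OLM mice and 13.7 to 20.6 RPKM (median 19.3) in old wildtype OLM mice, a log2 fold change of -0.36 (adjusted p = 0.864). Hmgcs1, HMG-CoA synthase, was at 22.6 to 50.3 RPKM (median 41.4) in old HDAC3flox/flox OLM mice and 37.7 to 61.9 RPKM (median 52.6) in old wildtype OLM mice, a log2 fold change of -0.39 that was not called. The ranges overlapped for both. Dhcr7, the last enzyme of the pathway, had -0.24 (adjusted p = 0.632), and Mvk, mevalonate kinase, the smallest difference of -0.06. Per mouse, the mean level of the list was 3.05 to 3.85 in old HDAC3flox/flox OLM mice, lowest in H3F-BV-113D, and 3.52 to 3.99 in old wildtype OLM mice. The median was -0.16 without mice H3F-BV-108D and H3F-BV-113D, -0.21 with median-ratio scaling, and -0.03 in the homecage. Genes of 1 pathway move together from mouse to mouse, so the 17 values are not separate observations.

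Immune and glial genes were spread widely among the mice of each group. The 12 MHC class I genes had a median of -0.39 and the 8 MHC class II genes one of -0.89, all negative and none called. In the homecage the direction was the other one, with medians of 0.49 for class I and 1.05 for class II and all 12 and 8 genes positive. Cd74, the class II invariant chain, was at 14.2 to 1670 RPKM (median 41.8) in old HDAC3flox/flox OLM mice and 12.9 to 641 RPKM (median 189) in old wildtype OLM mice, so that the deleted mice held both a lower median and the highest value, in H3F-BV-113D (log2 fold change -1.09, not called). Without mice H3F-BV-108D and H3F-BV-113D the medians were -0.98 for class I and -1.70 for class II, and with the Xist status as a term they were 0.09 for class I and -0.0017 for class II. Interferon-stimulated genes (median 0.03 of 32), lymphocyte genes (0.11 of 20), chemokine genes (0.20 of 21) and complement genes (0.03 of 13) had no called member, and without both mice these medians were -0.36 for interferon-stimulated, -0.41 for lymphocyte, -0.27 for chemokine and -0.44 for complement genes. Among 20 reactive astrocyte genes the median was 0.36, with Lcn2, a lipocalin of inflammation, at 3.05 to 99.6 RPKM in old HDAC3flox/flox OLM mice and 0.821 to 14.6 RPKM in old wildtype OLM mice (log2 fold change 1.81, not called); without both mice the median was -0.02. Among 21 disease-associated microglia genes the median was 0.20, and -0.16 without both mice, with no called gene other than Lpl, which was lower. Homeostatic microglia genes had a median of -0.09 (-0.30 without both mice), astrocyte markers of 0.0023 (0.0013), myelin genes of -0.04 (-0.14) and endothelial genes of 0.07 (-0.03), with none called. Homecage medians were 0.52 for interferon-stimulated, 0.55 for complement, 0.44 for homeostatic microglia, 0.01 for astrocyte and -0.01 for endothelial genes. They were 0.59 for lymphocyte, 0.59 for chemokine, 0.55 for reactive astrocyte and 0.73 for disease-associated microglia genes. The homecage median of myelin genes was 0.59, with all 15 positive at an unadjusted limma p under 0.05 (3.64% of all genes were).

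The housekeeping and synaptic lists had medians near 0 over all 14 mice. The 28 glutamate receptor and postsynaptic genes, the 14 GABA receptor subunits and the 29 voltage-gated ion channels had medians of -0.05, -0.04 and -0.03, and the 76 oxidative phosphorylation subunits one of -0.01. Without mice H3F-BV-108D and H3F-BV-113D these medians were 0.13 for glutamate receptor and postsynaptic genes, 0.11 for GABA receptor subunits, 0.10 for ion channels and -0.07 for oxidative phosphorylation subunits. The 76 ribosomal protein genes had a median of 0.07 with 60 positive values, and -0.10 without mice H3F-BV-108D and H3F-BV-113D. The 17 heat shock proteins and cochaperones had a median of -0.10. Hspd1, the mitochondrial chaperonin, held 24.2 to 25.5 RPKM in old HDAC3flox/flox OLM mice and 25.7 to 30.2 RPKM in old wildtype OLM mice, without overlap (log2 fold change -0.13, SE 0.04, adjusted p = 0.615). None of the genes of these lists was called. The same held for the glucocorticoid-responsive (median 0.04), p53 target (0.12), oligodendrocyte precursor (-0.01), neuropeptide (-0.11) and striatum and septum (-0.08) lists. It also held for the neurogenesis (-0.15), lysosomal (0.05), collagen (-0.01) and red blood cell (-0.08) lists. Without both mice the p53 target median was -0.03 and the lysosomal one -0.27. Of the 723 genes of all 41 lists that were tested, Hdac3, Homer3, Cdh24 and Lpl were the only called ones.

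**Figure D4:**
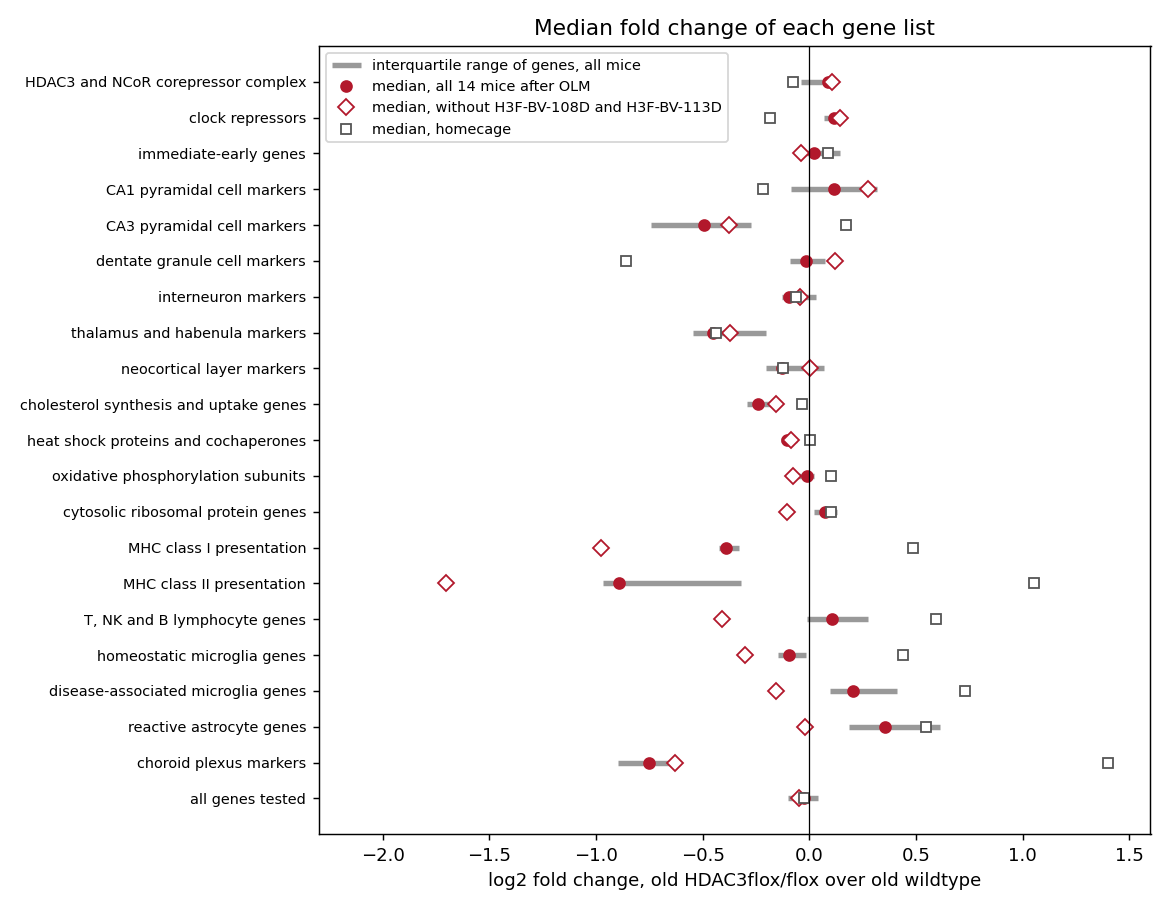
Median log2 fold change, old HDAC3flox/flox over old wildtype (horizontal axis), of 20 lists and of all genes tested (rows), after OLM with all mice (filled circles, with grey bars for the interquartile range of the genes), after OLM without H3F-BV-108D and H3F-BV-113D (diamonds) and in the homecage (squares). CA3 markers and cholesterol genes stay negative with and without both mice, at -0.49 and -0.37 and at -0.24 and -0.16.

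The same genotypes in the homecage showed how far the difference was shared with untrained mice. Across all genes tested, the log2 fold changes after OLM and in the homecage had a correlation of 0.19. In the homecage 33 genes were called lower (0.235%) and 4 higher (0.0284%), and at an unadjusted p under 0.05, 1291 genes were lower (9.18%) and 512 higher (3.64%). The homecage split also depended on the scaling, with 762 lower and 785 higher genes with median-ratio scaling and 881 lower and 621 higher with quantile normalization. Of the 36 genes called lower after OLM, 35 (97.2%) had a negative fold change in the homecage, beside 55.2% of all genes, and 14 (38.9%) were lower there at an unadjusted p under 0.05. Both called sets held Hdac3 and Alox8 only. The fold change in the homecage was smaller in size for 35 of the 36, with a median of -0.28 in the homecage against -0.69 after OLM; the genes were chosen for their values after OLM, which alone favours larger values there. In the other direction, 29 of the 33 genes called lower in the homecage (87.9%) were negative after OLM, beside 60.3% of all genes, with a median of -0.12. The homecage mice were separate animals, so the comparisons share no library.

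Tmem114 was at 0.874 ± 0.424 RPKM in old HDAC3flox/flox homecage mice (SD, n = 8) and 2.09 ± 0.564 RPKM in old wildtype homecage mice (SD, n = 6), a log2 fold change of -0.95 (adjusted p = 0.161). Homer3 was at 21.996 ± 6.48 RPKM in old HDAC3flox/flox homecage mice and 27.8 ± 5.70 RPKM in old wildtype homecage mice, which overlapped (log2 fold change -0.36, adjusted p = 0.448). Ak4 was at 5.38 ± 1.24 RPKM in old HDAC3flox/flox homecage mice and 6.21 ± 1.27 RPKM in old wildtype homecage mice, against 5.72 ± 1.04 RPKM in old HDAC3flox/flox OLM mice and 9.27 ± 1.09 RPKM in old wildtype OLM mice, of which no value was under 7.86 RPKM. Lpl was at 10.2 ± 2.71 RPKM in old HDAC3flox/flox homecage mice and 10.9 ± 3.01 RPKM in old wildtype homecage mice (log2 fold change -0.08). Alox8 had a log2 fold change of -0.72 in the homecage (adjusted p = 0.1497), near its value after OLM. Qpct, glutaminyl cyclase, was the exception in sign, with 0.09 in the homecage and -0.33 after OLM.

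Whether the genotype difference itself changed with training was tested as an interaction over all 28 old libraries. No gene passed (limma, smallest adjusted p = 0.995), with 363 genes of positive and 233 genes of negative interaction at an unadjusted p under 0.05. With library weights, 632 and 169 genes passed. Of the 36 genes called lower after OLM, 35 had a negative interaction and 12 an unadjusted p under 0.05, but these genes were chosen on 1 of the terms compared. A difference in genotype effect between trained and untrained mice was therefore not shown for any single gene at this number of mice in the unweighted fit.

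**Figure D5:**
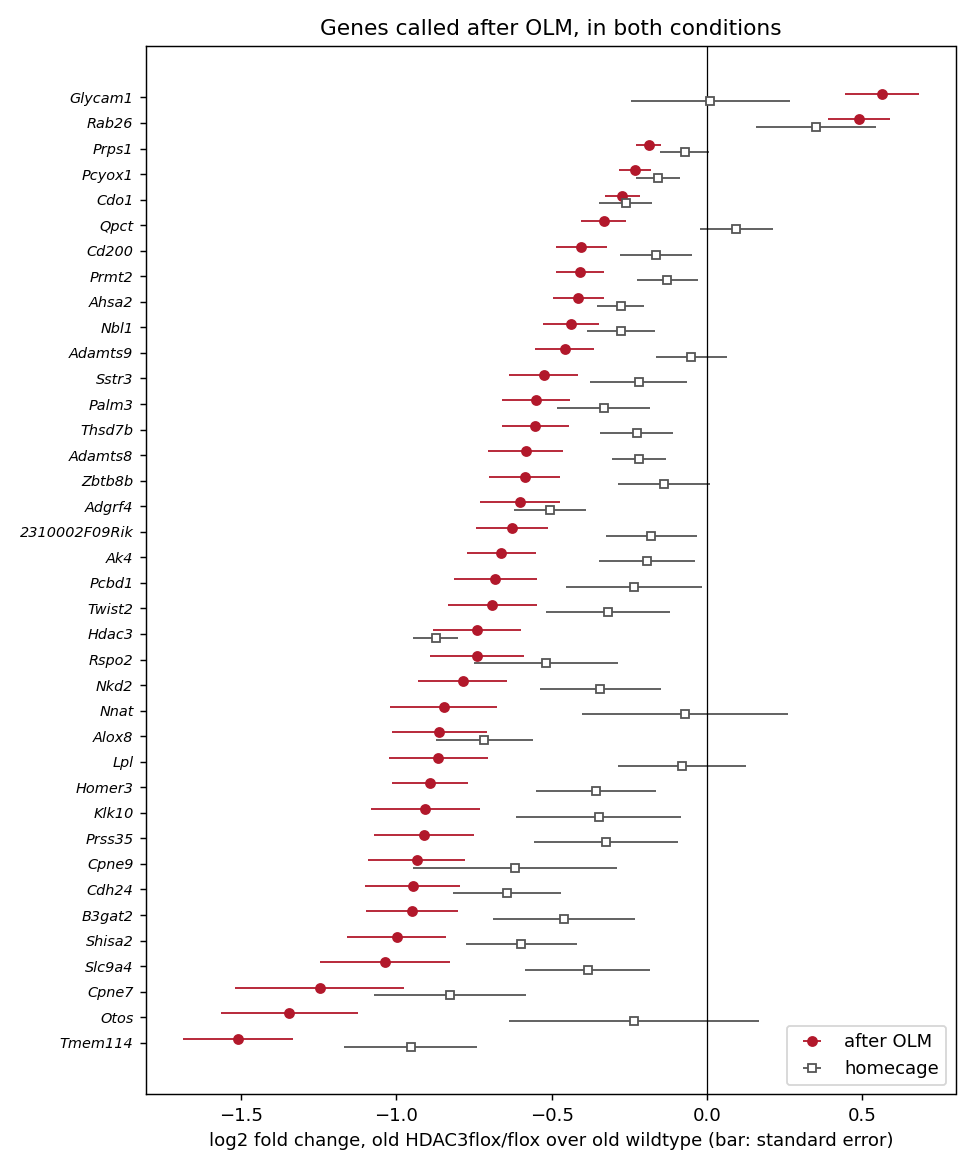
Log2 fold change with its standard error (horizontal axis), old HDAC3flox/flox over old wildtype, of the 38 genes called after OLM (rows), after OLM (filled circles) and in the homecage (open squares). All squares but those of Qpct, Rab26 and Glycam1 lie left of 0. Cdo1 has nearly the same value in both conditions, and Hdac3 is at -0.74 after OLM and -0.87 in the homecage.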

How the data were processed

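Per the labels and the methods, dorsal hippocampus punches gave 1 poly-A library per mouse (TruSeq RNA v2, single 50-base reads on an Illumina HiSeq). The authors filtered reads with CASAVA 1.8.2, aligned them to mm10 with ELAND and Bowtie2, kept reads aligned uniquely and deposited RPKM values per gene. RPKM values are not counts, and no library total was given. A second deposited table, which repeats these columns with the group means, SDs and p-values of the authors, was not used. RPKM was transformed to log2(RPKM + 0.5), genes with a mean of at least 0.5 were kept, and groups were compared with limma 3.58.1 (R 4.3.3, trended empirical Bayes). Adjusted p-values are those of Benjamini and Hochberg over all genes tested. The fit was tested on simulated data, with independent noise and the same SD of a gene in both groups. That simulation does not cover the mice that stand apart or the unequal spread of the groups. Exact permutation tests were two-sided over the 14 mice. Depth was estimated from the spacing of low RPKM values of 734 short RNA genes, on the assumption that 1 step is 1 base of a 50-base read. Of the values used, 80.0% to 92.5% lay within 0.05 of a whole step. The median estimates were 26.1 M reads in the old HDAC3flox/flox OLM group and 22.7 M reads in the old wildtype OLM group. Both were below the average number of reads per sample that the methods state. The genes named were the study's 7 genes, the 15 called genes of largest fold change in each direction with a mean of at least 1 RPKM in a group (filled by smallest p), up to 4 genes per list by smallest p, and the other called genes. The samples, genes and lists were chosen with earlier results of these data known. Labels do not say which mice shared a litter or flow cell. Alternatives were other pseudocounts, filters, scalings, tests, an Xist term and leaving out mice. The exclusion of mice 108D and 113D together was chosen after seeing the data, as were the sterol and GC motifs. Gene positions and promoters are those of RefSeq (GRCm38.p6). Some genes of the lists are not reported here by name.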

Additional observations from a re-analysis of the deposited data

Results flagged for a closer look

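In each group of 8 old HDAC3flox/flox OLM or 6 old wildtype OLM mice, the gap between an extreme mouse and its nearest neighbour was compared with the range of the group, for the 7 study genes, the called genes and the 41 lists. Chance sets apart about 1 group in 20. Of 170 results tested, 13 held a mouse set apart, and these results share mice and genes. Single genes were set apart in mouse H3F-BV-119D of the old HDAC3flox/flox OLM group, in which Lpl was at 14.3 RPKM (nearest mouse 9.22 RPKM) and Ahsa2, related to an activator of Hsp90, at 8.59 RPKM (nearest 6.62 RPKM). Its neocortical layer markers were also high, with a mean level of 3.2 (nearest 2.59). All mean levels here are in log2(RPKM + 0.5).

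Mouse H3F-BV-113D of the old HDAC3flox/flox OLM group had the highest lymphocyte genes (3.23, nearest 1.25) and neurogenesis and proliferation genes (1.8, nearest 1.16) and the lowest clock activators (2.89, nearest 3.12). Mouse H3F-BV-108D of the same group had the highest oxidative phosphorylation subunits (6.77, nearest 6.2) and heat shock genes (4.87, nearest 4.71) and the lowest HDAC3 and NCoR complex genes (3.79, nearest 4.1). Mouse H3F-BV-118D of the same group had the highest choroid plexus markers (4.65, nearest 0.826) and red blood cell genes (2.43, nearest 0.65).

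In the old wildtype OLM group, mouse OWT-BV-106C had the highest lymphocyte genes (2.15, nearest 0.462) and mouse OWT-BV-127C the highest red blood cell genes (3.08, nearest 0.824).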

How the results depend on the processing

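The 36 genes lower after OLM became 20 with median-ratio scaling, 8 with quantile normalization, 8 with the Xist term, 2 at an adjusted p under 0.05, 289 with library weights and 70 without both mice that stand apart, with 2 to 40 when 1 mouse was left out. The 2 genes higher after OLM became 4 with no filter, 1 each with a minimum mean of 1 RPKM, with the regularized test and with separate variances, 0 each with quantile normalization, the Xist term, an adjusted p under 0.05 and the fit of all 28 old libraries, 78 with library weights and 17 without both mice, with 0 to 3 when 1 mouse was left out. In the homecage, the 33 lower genes became 15 with a pseudocount of 0.1, 64 with no filter, 1 each with median-ratio scaling, quantile normalization and an adjusted p under 0.05, 17 with the Xist term, 202 with the 28-library fit, 75 with the regularized test, 135 with separate variances and 1385 with library weights, with 1 to 519 when 1 mouse was left out (519 without H3F-HC-121B). The 4 higher genes there became 0 with a pseudocount of 0.1, either scaling or an adjusted p under 0.05, 1 with the Xist term, 14, 13 and 11 with the 28-library, regularized and separate-variance fits and 270 with library weights, with 0 to 60 when 1 mouse was left out. For the interaction, 632 positive and 169 negative differences passed with library weights, against 0 and 0, and leaving out 1 mouse gave 0 to 1 positive and 0 negative. Hdac3 kept its direction, at -0.74 but not called with separate variances (adjusted p = 0.170), with the Xist term (0.193) or at an adjusted p under 0.05, and lay between -0.80 and -0.65 when 1 mouse was left out, with adjusted p up to 0.305.

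Small differences changed sign. Arc was at 0.00079 with median-ratio scaling, 0.056 without both mice and -0.095 to 0.044 when 1 mouse was left out. Fos was at -0.22 with library weights, -0.21 without both mice and -0.13 to 0.15 when 1 was left out. Nr4a1 was at -0.076 with library weights, -0.0037 with the Xist term and -0.086 to 0.11 when 1 was left out. Tsc22d3 was at -0.0084 with library weights, and Cd74 at 0.13 with the regularized test. The cause of these changes was not tested. No paired analysis was possible because the mouse numbers in the labels are unique to each mouse and pair no samples across the groups. No library total was given, so the counting error of low values was not computed.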
